A study of Mus musculus with 4 samples.

Results

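Molecular chaperones bind unfolded or newly made proteins and help them to fold, to assemble or to be degraded. The main families work as machines with helpers: HSP70 proteins cycle between binding and release under the control of J-domain proteins (DNAJA, DNAJB and DNAJC), HSP90 proteins act later on signalling proteins and receptors, the CCT ring folds actin and tubulin, HSP60 with its lid HSP10 folds proteins in mitochondria, and small heat shock proteins hold unfolded proteins in solution. Some members are made all the time in every cell, some are switched on by heat shock factor 1 when proteins unfold, and some are made mainly in the testis or in muscle.

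Chaperone and heat shock protein genes were chosen by gene symbol alone, from the autosomal protein-coding genes of GENCODE mouse release 21, and 82 of 20807 genes met the rule. They comprised 14 HSP70 and HSP110 genes, 3 HSP90 genes, 2 genes of the HSP60 and HSP10 pair, 8 CCT genes, 4 DNAJA, 13 DNAJB and 28 DNAJC genes, 8 small heat shock protein genes, and 2 cofactor genes (Hspbp1 and Hspbap1) that the symbol rule took by their first letters. Cct6a, a CCT subunit, is not annotated as coding in that release and is no member. The rule uses no measured value, although it was set with earlier results of these data known.

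Open chromatin was mapped by ATAC-seq, in which a transposase cuts accessible DNA, in the mouse embryonic stem cell (ESC) line E14, grown in serum with leukaemia inhibitory factor. The cells had received a lentiviral short hairpin RNA, either against GFP (shGFP, 1 library) or against luciferase (shLuc, replicates 1, 2 and 3), had been selected with puromycin at 2 µg/ml for 2 days and were collected 2 days later. Neither hairpin targets a mouse gene, so both groups are controls, and about 50000 cells were used per library. The labels do not state whether the shLuc replicates came from separate cultures, so their spread may be technical. With 1 library against 3, an exact permutation test cannot give a p below 0.25, and no test between hairpins was made. The lists held 41943 peaks in shGFP and 17860, 41401 and 31585 peaks in shLuc replicates 1, 2 and 3, and the read depth behind them is not known from the lists. ESC identity could not be read from promoter peaks: of 8 ESC marker genes, 1 (Zfp42) had a promoter peak in every library and 5 (Pou5f1, Nanog, Sox2, Tdgf1 and Dppa4) had none in any list, while of 7 markers of differentiated cells 1 (Sox17) had a peak in every library and 5 had none. An absent peak here means only that the list used here holds no peak at that place, and whether the lists are complete was not tested.

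Most chaperone genes had a promoter peak, defined as a peak within 1 kb of the start of any of the gene's transcripts. In shGFP 67 of 82 members had one (81.7%, Wilson 95% interval 72.0 to 88.6), where 61.9% of all autosomal coding genes did. In shLuc the members with a peak numbered 60, 68 and 61 in replicates 1, 2 and 3, that is 73.2% (interval 62.7 to 81.6), 82.9% (73.4 to 89.5) and 74.4% (64.0 to 82.6). All coding genes stood at 48.4%, 61.5% and 56.3% in the same replicates. The shLuc mean was 76.8% ± 5.32 (SD, n = 3) for members and 55.4% ± 6.60 for all coding genes. Members thus exceeded all coding genes by 19.8 percentage points in shGFP and by 24.8, 21.4 and 18.1 points in the shLuc replicates (mean 21.4 ± 3.35, SD, n = 3), which was larger than the spread between replicates. When each list was shortened to the number of peaks of replicate 1, keeping the widest, the excess was 21.1 points in shGFP and 20.6 points in the shLuc mean. The shGFP share lay within the range of the shLuc shares. The intervals cover counting error over genes only.

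Counted over libraries, 55 of 82 members (67.1%) had a promoter peak in every library, where 44% of all coding genes did. A further 7 members had a peak in 3 libraries, 3 in 2 libraries and 9 in 1 library. Of all 20807 coding genes, 4578 had a peak in 1 to 3 libraries. The remaining 8 members (9.76%) had none in any library, where 34% of all coding genes had none. These 8 were Cct8l1, Dnajb7, Dnajb8, Dnajb14, Dnajc5b, Dnajc5g, Hspb7 and Hspb8. The plot of widths by library shows the complete matrix.

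**Figure D1:**
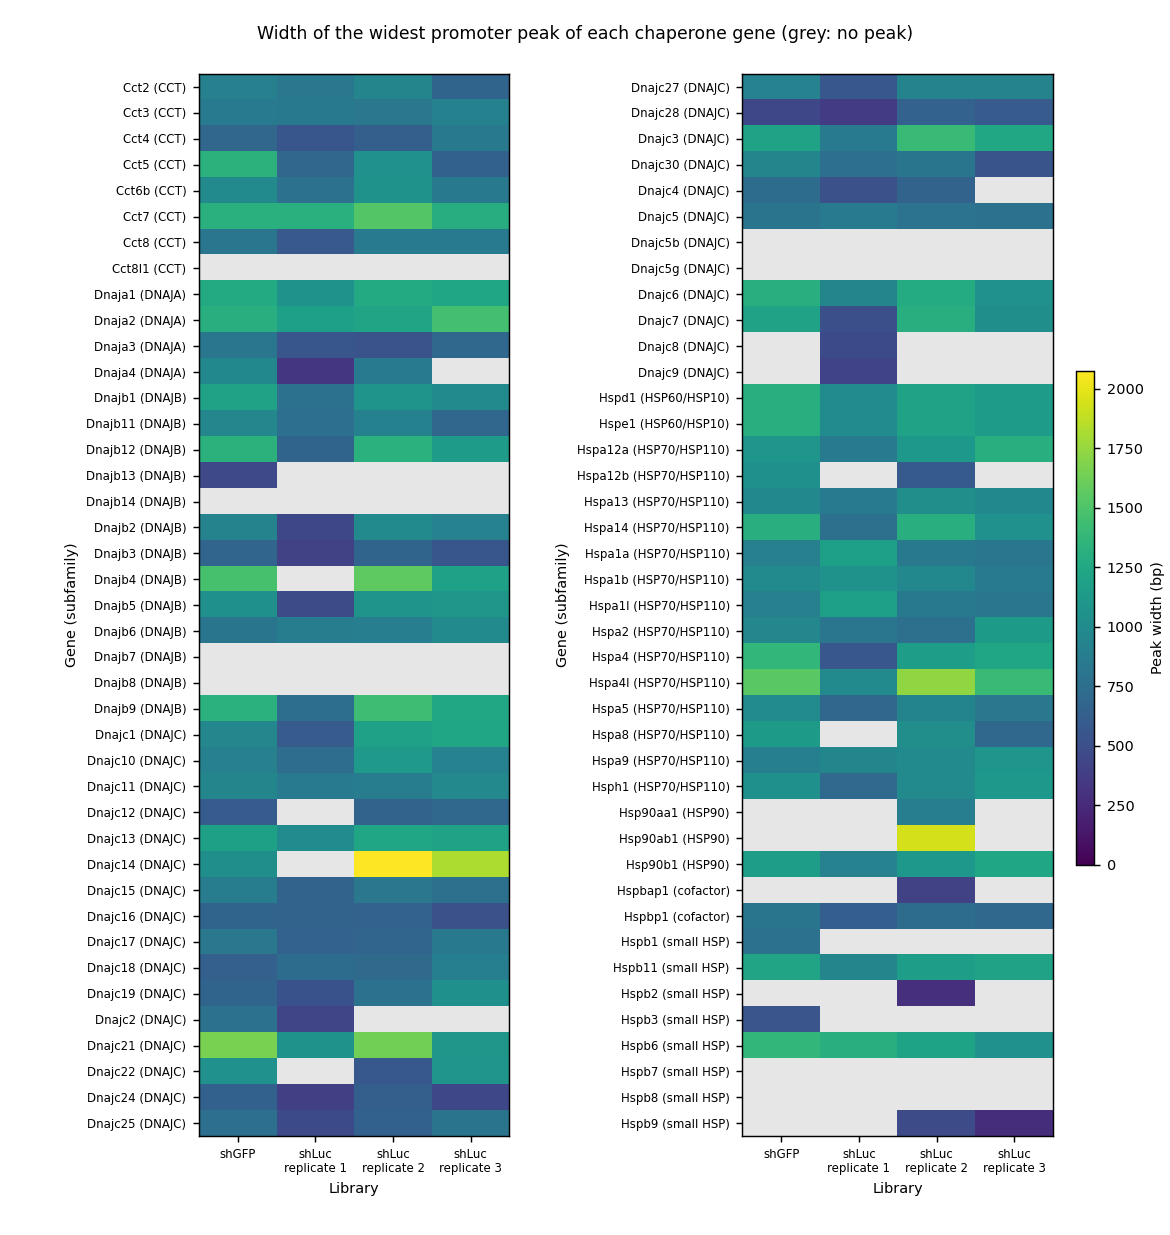
Each row is a chaperone gene with its subfamily, each column is a library, and the colour gives the width in bp of the widest peak within 1 kb of a transcript start. Grey cells hold no peak, and 55 of the 82 rows are coloured in all 4 libraries while 8 are grey throughout.

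The subfamilies varied in how many members had a peak in every library, where 44% of all coding genes had one. The HSP60 and HSP10 pair had both, the CCT genes 7 of 8, the HSP70 and HSP110 genes 12 of 14, the DNAJA genes 3 of 4, the DNAJC genes 19 of 28 and the DNAJB genes 8 of 13. Of the 3 HSP90 genes 1 had a peak in every library, and of the 8 small heat shock protein genes 2 did. Those 2 were Hspb6 and Hspb11, of which Hspb11 encodes a protein of the cilium transport machinery (IFT25) and starts 61 bp from Lrrc42. In shGFP 14 of 14 HSP70 and HSP110 genes had a peak, and in the shLuc replicates 12, 14 and 13 did. Small heat shock protein genes had a peak in 4 of 8 cases in shGFP and in 2, 4 and 3 of 8 in the shLuc replicates. All coding genes stood at 61.9% in shGFP and 48.4, 61.5 and 56.3% in the shLuc replicates. With so few genes per subfamily the intervals are wide, for example 21.5 to 78.5% for the small heat shock protein genes in shGFP.

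**Figure D2:**
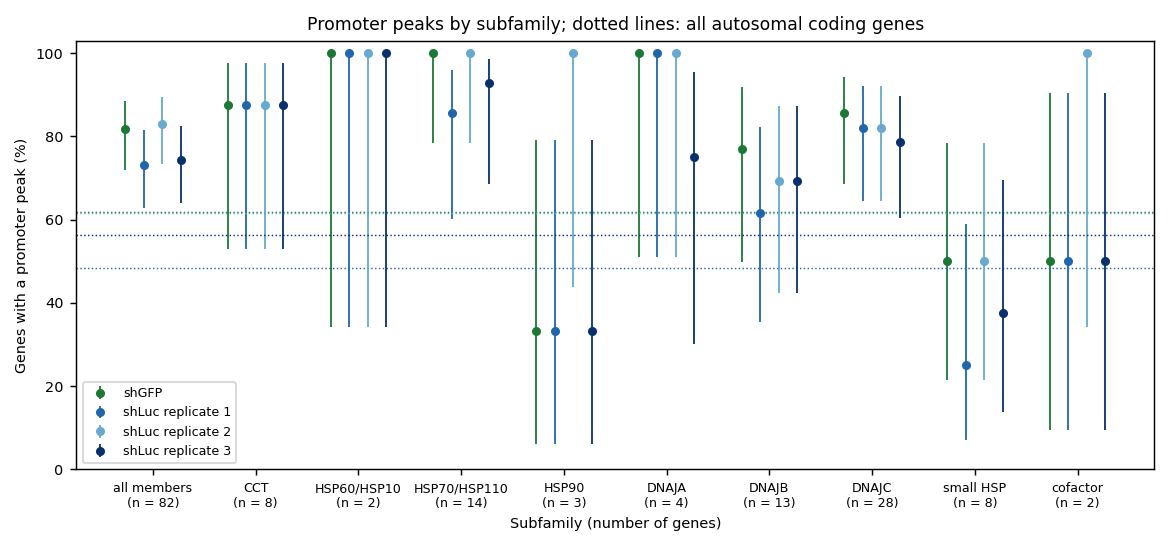
Points give the percentage of genes of each subfamily with a promoter peak in each library, bars give the Wilson 95% interval over genes, and dotted lines give the percentage among all autosomal coding genes in the library of the same colour. The CCT, DNAJC and HSP70/HSP110 points lie above the dotted lines in all 4 libraries, and the small HSP points lie below the line of their own library in all 4.

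Genes of constitutive chaperones, those made in unstressed cells, formed a list of 24 members, of which 22 had a promoter peak in shGFP and 22, 23 and 22 in the shLuc replicates. The shares were 91.7% in shGFP and 91.7, 95.8 and 91.7% in shLuc, against 61.9% and 48.4, 61.5 and 56.3% of all coding genes. No member lacked a peak in all libraries, and 21 (87.5%) had one in every library, where 44% of all coding genes did. The 3 exceptions were Hspa8, Hsp90ab1 and Dnajc8. The constitutive list was set from textbook roles, with earlier results of these data known. All of its members but Dnaja3, Dnajc7 and Hspa13 met the limits for a CpG-rich promoter given further below. Of CpG-rich coding genes 72% had a peak in every library, which is nearer to the share of the list than 44% is.

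Subunits of the CCT ring, which folds actin and tubulin, had peaks in every library. Cct2 had a promoter peak of 903 bp in shGFP and of 830, 946 and 673 bp in shLuc replicates 1, 2 and 3. Cct3 had 868 bp in shGFP and 843, 823 and 916 bp in shLuc, and its start lies 117 bp from that of Tsacc. At Cct4 the peak was 686 bp wide in shGFP and 554, 631 and 837 bp in shLuc. For each of these 3 subunits the shGFP width lay within the shLuc range. For Cct5, whose start lies 48 bp from that of Fam173b, the widths were 1337 bp in shGFP and 683, 1054 and 648 bp in shLuc. Cct7 had 1320 bp in shGFP and 1321, 1520 and 1297 bp in shLuc. Cct8 had 813 bp in shGFP and 581, 864 and 857 bp in shLuc. Cct7 was the widest of the ring in every shLuc library, and Cct5 was the only one of these subunits whose shGFP peak was wider than all its shLuc peaks. Cct6a, outside the rule, also had a peak in each library (745, 655, 673 and 649 bp).

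Among HSP70 proteins of the cytosol, Hspa8 encodes HSC70, the abundant constitutive form, at chr9:40800984-40810087 (GRCm38, plus strand). Its promoter peak was 1129 bp wide in shGFP and 1030 and 704 bp in shLuc replicates 2 and 3, and replicate 1, the shortest list, had none, its nearest peak being 58175 bp from the 5' end. Hspa4, an HSP110-type exchange factor, had 1375 bp in shGFP and 564, 1159 and 1225 bp in shLuc. Hspa14, which works at the ribosome, had 1307 bp in shGFP and 770, 1302 and 1054 bp in shLuc. For Hspa4 and Hspa14 the shGFP peak was the widest and the replicate 1 peak the narrowest. Hspa9, the mitochondrial HSP70, had 897 bp in shGFP and 950, 995 and 1091 bp in shLuc, with shGFP below all the shLuc values.

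Both cytosolic HSP90 genes had promoter peaks in a single library. Hsp90ab1, the constitutive cytosolic HSP90 at chr17:45567775-45573271 (minus strand), had a peak of 1946 bp in shLuc replicate 2 and none in the other libraries, where the nearest peak was 17351 bp away in shGFP and 65909 and 17249 bp away in replicates 1 and 3. Hsp90aa1, the inducible cytosolic form, had promoter peaks in shLuc replicate 2 alone, 1 of 892 bp at a start inside the gene and 1 of 708 bp that ended 38 bp before the 5' end. Hsp90b1, the form of the endoplasmic reticulum, had 1165 bp in shGFP and 918, 1108 and 1220 bp in shLuc. Without replicate 2, neither cytosolic HSP90 gene had a promoter peak in any list.

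In mitochondria, Hspd1 (HSP60) and Hspe1 (HSP10) share a promoter, with starts 71 bp apart on opposite strands, and the same peaks counted for both. Those peaks were 1303 bp wide in shGFP and 1003, 1195 and 1149 bp in shLuc. The mitochondrial list (Hspa9, Hspd1, Hspe1, Dnaja3, Dnajc11, Dnajc15, Dnajc19 and Dnajc30) had a peak at 8 of 8 genes in every library, where 44% of all coding genes did. That list was set from textbook roles with earlier results of these data known, so its share may depend on which genes were chosen. The widest peak per gene measured 521 to 1303 bp. Dnaja3 had 813 bp in shGFP and 555, 531 and 694 bp in shLuc. The 555 bp peak of replicate 1 lay at another start, 43804 bp past the 5' end. At the 5' end of Dnaja3 the replicate 1 peak was 301 bp wide. Dnajc11 had 955 bp in shGFP and 860, 874 and 978 bp in shLuc. The import motor subunit gene Dnajc19 had 673 bp in shGFP and 521, 779 and 1040 bp in shLuc. Of these, Dnaja3 had its widest peak in shGFP, and Dnajc11 and Dnajc19 had theirs in shLuc replicate 3. Dnajc15 had 883 bp in shGFP and 665, 827 and 765 bp in shLuc, and Dnajc30 had 957 bp in shGFP and 756, 805 and 543 bp in shLuc.

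In the endoplasmic reticulum, 8 of 8 genes of the list had a peak in every library as well, where 44% of all coding genes did. This list too was set from textbook roles with earlier results of these data known. Its share may therefore depend on which genes were chosen, and the other members were not sorted by compartment. Hspa5 encodes BiP, the HSP70 of that compartment, and its peak was 1003 bp wide in shGFP and 684, 941 and 828 bp in shLuc. Hspa13 had 967 bp in shGFP and 846, 1028 and 967 bp in shLuc. The co-chaperone gene Dnajb9 had 1323 bp in shGFP and 752, 1432 and 1237 bp in shLuc. Widths in this list were smallest in shLuc replicate 1, with medians of 985 bp in shGFP and 755, 1114.5 and 1093.5 bp in the shLuc replicates. Dnajb11 had 959 bp in shGFP and 758, 911 and 688 bp in shLuc. Dnajc1 had 962 bp in shGFP and 596, 1187 and 1221 bp in shLuc. Dnajc10 had 904 bp in shGFP and 739, 1121 and 920 bp in shLuc. These 3 encode J-domain proteins, and of them Dnajb11 alone was narrowest in replicate 3. Dnajc3, a further J-domain protein of the compartment, had 1198 bp in shGFP and 859, 1411 and 1236 bp in shLuc.

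The remaining constitutive genes encode J-domain proteins that stimulate HSP70. Dnaja1 had 1272 bp in shGFP and 1059, 1268 and 1230 bp in shLuc. Dnaja2 had 1301 bp in shGFP and 1174, 1212 and 1454 bp in shLuc. Dnajb6 had 804 bp in shGFP and 879, 885 and 989 bp in shLuc. These were present throughout, Dnaja1 being widest in shGFP and Dnajb6 narrowest there. Dnajc7 had 1199 bp in shGFP and 510, 1306 and 1035 bp in shLuc. Dnajc8 had a peak of 463 bp in shLuc replicate 1 and none in the others, although replicate 1 was the shortest list.

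Stress-induced genes were compared next. Hspa1a and Hspa1b encode the heat-inducible HSP70, and heat shock promoters are a textbook case of promoters that stay accessible before stress. Both had a promoter peak in all 4 libraries. At Hspa1a (chr17:34969190-34972156, minus strand) the peak was 901 bp wide in shGFP and 1172, 836 and 818 bp in shLuc replicates 1, 2 and 3. At Hspa1b (chr17:34956436-34959238, minus strand) it was 986 bp wide in shGFP and 1060, 973 and 866 bp in shLuc. Each peak covered the 5' end of its gene, and shGFP lay within the shLuc range at both. Both had their widest peak in shLuc replicate 1, the library with the shortest list. The genes are near-identical copies: of the 50-base words within 500 bp of each 5' end, 477 of 952 (50.1%) occur more than once in the genome, and reads with equally good positions were placed at random by the authors, so accessibility at 1 copy cannot be told apart from that at the other in the repeated part.

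The upstream sequences show how alike the copies are, and are printed for that reason from the RefSeq promoter table (GRCm38.p6), in which 67 of 82 members had an entry. They run 5' to 3' on the gene's strand up to the base before the RefSeq start, Hspa1a over chr17:34972157-34972406 and Hspa1b over chr17:34959239-34959488, both on the minus strand. Capitals mark GAANNTTC, a pair of inverted units of the heat shock element to which heat shock factor 1 binds. The copies were identical at 247 of 250 aligned positions (98.8%).
Hspa1a: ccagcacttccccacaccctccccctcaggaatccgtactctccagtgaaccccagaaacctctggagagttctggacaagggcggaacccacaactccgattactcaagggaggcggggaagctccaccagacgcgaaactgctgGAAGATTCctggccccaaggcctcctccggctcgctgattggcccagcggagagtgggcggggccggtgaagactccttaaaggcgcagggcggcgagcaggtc
Hspa1b: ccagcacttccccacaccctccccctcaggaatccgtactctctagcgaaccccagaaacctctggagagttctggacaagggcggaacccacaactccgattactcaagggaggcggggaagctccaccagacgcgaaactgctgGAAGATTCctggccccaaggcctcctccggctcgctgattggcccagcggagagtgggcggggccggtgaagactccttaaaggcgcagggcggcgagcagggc
Both carried 1 match, GAAGATTC, from -104 to -97 relative to the start, inside the peak of every library.

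Of the 6 stress-induced genes, 4 had a peak in every library (Hspa1a, Hspa1b, Hsph1 and Dnajb1), where 44% of all coding genes did. Hsph1, the HSP110 exchange factor, had 1043 bp in shGFP and 708, 985 and 1105 bp in shLuc. Dnajb1 (HSP40), the main partner of inducible HSP70, had 1198 bp in shGFP and 776, 1077 and 994 bp in shLuc. Hspb1 (HSP25), a small heat shock protein, had a peak of 782 bp in shGFP and none in the 3 shLuc libraries. Hsp90aa1 had peaks in shLuc replicate 2 alone. By library, 5 of 6 had a peak in shGFP and 4, 5 and 4 in the shLuc replicates, against 22 of 24 and 22, 23 and 22 of 24 constitutive genes. The list is too small for its share to be told apart from that of the constitutive genes: the intervals in shGFP were 43.6 to 97.0% and 74.2 to 97.7%. At Hspb1, 33.5% of the 50-base words around the 5' end are repeated in the genome.

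The motif GAANNTTC, which reads the same on both strands, was searched from 250 bp before to 50 bp after the annotated 5' end alone. It was found in 14 of 82 members (17.1%) and in 7.58% of all coding genes. Of the stress-induced genes 5 of 6 held it (Hspa1a, Hspa1b, Hspb1, Dnajb1 and Hsp90aa1), of which Hspa1a and Hspa1b are near-identical copies. Of the constitutive genes 2 of 24 did (Hspa9 and Hspe1), and of the testis genes 2 of 11 (Cct8l1 and Dnajc5b). The other holders were Dnajc12, Dnajc18, Dnajc27, Hspb3 and Hspb8. Of the 14, Cct8l1, Dnajc5b and Hspb8 had no peak in any library, so the letters occurred with and without a peak. A longer form with a further unit in the same spacing was found in Hspe1 alone among members and in 0.485% of all coding genes, and it contains a match of the shorter motif. Hspd1 shares that promoter, but its search window did not overlap that of Hspe1, so the match was counted for Hspe1 only. The endoplasmic reticulum stress element was searched in the same window on both strands, as CCAAT and CCACG at their fixed spacing. It was found in Dnajc3 and Hsp90b1 among members and in 0.106% of all coding genes. For Hspa5 the window lay around the GENCODE 5' end (34771970), upstream of the RefSeq start (34772090). The bases just before that RefSeq start were not searched, so absence of the element from Hspa5 cannot be concluded. Dnajc3 is shown with this element in capitals, over chr14:118937682-118937931 on the plus strand (GRCm38.p6).
Dnajc3: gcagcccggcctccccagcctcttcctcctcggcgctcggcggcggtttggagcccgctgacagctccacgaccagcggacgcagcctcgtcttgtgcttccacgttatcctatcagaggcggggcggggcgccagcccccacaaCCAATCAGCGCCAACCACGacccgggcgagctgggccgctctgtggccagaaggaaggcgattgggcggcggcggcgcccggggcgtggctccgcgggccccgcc
The element lies from -105 to -87 relative to the RefSeq start.

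Testis-restricted genes divided into those with peaks and those without. Of the 11, 5 had a promoter peak in shGFP and 4, 5 and 5 in the shLuc replicates, 6 had one in at least 1 library, 4 in every library and 5 in none. The testis shares were 36.4% in every library and 45.5% in none, where all coding genes stood at 44% and 34%. In shGFP the testis share was 45.5% (interval 21.3 to 72.0), against 61.9% of all coding genes. With 11 genes these shares are too uncertain to be told apart. The 4 with a peak in every library were Hspa1l, Hspa2, Dnajb3 and Cct6b. Of these, Hspa1l and Cct6b have another coding gene close by. Hspa1l, the testis HSP70 next to Hspa1a, starts 547 bp from it on the opposite strand, and its counted peaks were those of Hspa1a, each centred nearer to the start of Hspa1a. Cct6b, the testis form of a CCT subunit, starts 24 bp from Zfp830, and its peaks measured 987 bp in shGFP and 778, 1066 and 842 bp in shLuc. At Cct6b, accessibility of 1 start cannot be told apart from that of the other. The peaks counted for Hspa1l ended 86, 81 and 5 bp before its 5' end in shLuc replicates 1, 2 and 3, and reached 4 bp past it in shGFP. Whether they also belong to Hspa1l cannot be told from the lists.

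Hspa2 and Dnajb3 had no other coding start within 1 kb. Hspa2, the HSP70 of spermatocytes (chr12:76404176-76406938, plus strand), had peaks of 965 bp in shGFP and 817, 764 and 1134 bp in shLuc, all covering its 5' end. Dnajb3 had narrower peaks, of 674 bp in shGFP and 407, 667 and 554 bp in shLuc. Hspb9 had peaks of 481 and 275 bp in shLuc replicates 2 and 3 only, and Dnajb13, of the sperm flagellum, had a peak of 461 bp in shGFP only. Dnajb7, Dnajb8, Dnajc5b, Dnajc5g and Cct8l1 had none. Hspa2 and Dnajb3 met the limits for a CpG-rich promoter given in the next comparison, as did Cct6b, whereas the 5 genes without a peak did not. Hspa1l, Hspb9 and Dnajb13, which had a peak in at least 1 library, did not meet them either. A testis gene with a peak in every library and a testis gene without are shown, Hspa2 over chr12:76404290-76404369 and Cct8l1 over chr5:25515817-25516066, both plus strand and ending at the base before the RefSeq start (GRCm38.p6). The Hspa2 stretch is short because an annotated exon ends just before it. It lies between the GENCODE 5' end (76404176) and the RefSeq start (76404370), so it is not upstream of that 5' end. Capitals again mark GAANNTTC.
Hspa2: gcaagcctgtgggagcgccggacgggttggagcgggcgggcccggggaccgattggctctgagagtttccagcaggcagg
Cct8l1: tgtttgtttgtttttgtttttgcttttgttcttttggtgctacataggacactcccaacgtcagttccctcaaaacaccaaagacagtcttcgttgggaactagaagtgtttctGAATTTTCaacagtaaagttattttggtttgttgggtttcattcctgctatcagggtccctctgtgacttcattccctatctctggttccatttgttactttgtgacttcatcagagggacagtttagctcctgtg
The Cct8l1 stretch has 2 CpG dinucleotides in 250 bases, where that of Hspa1a has 14, and its match (GAATTTTC) runs from -136 to -129. The nearest peak lay 13293 to 13415 bp from the Cct8l1 5' end in the 4 libraries.

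**Figure D3:**
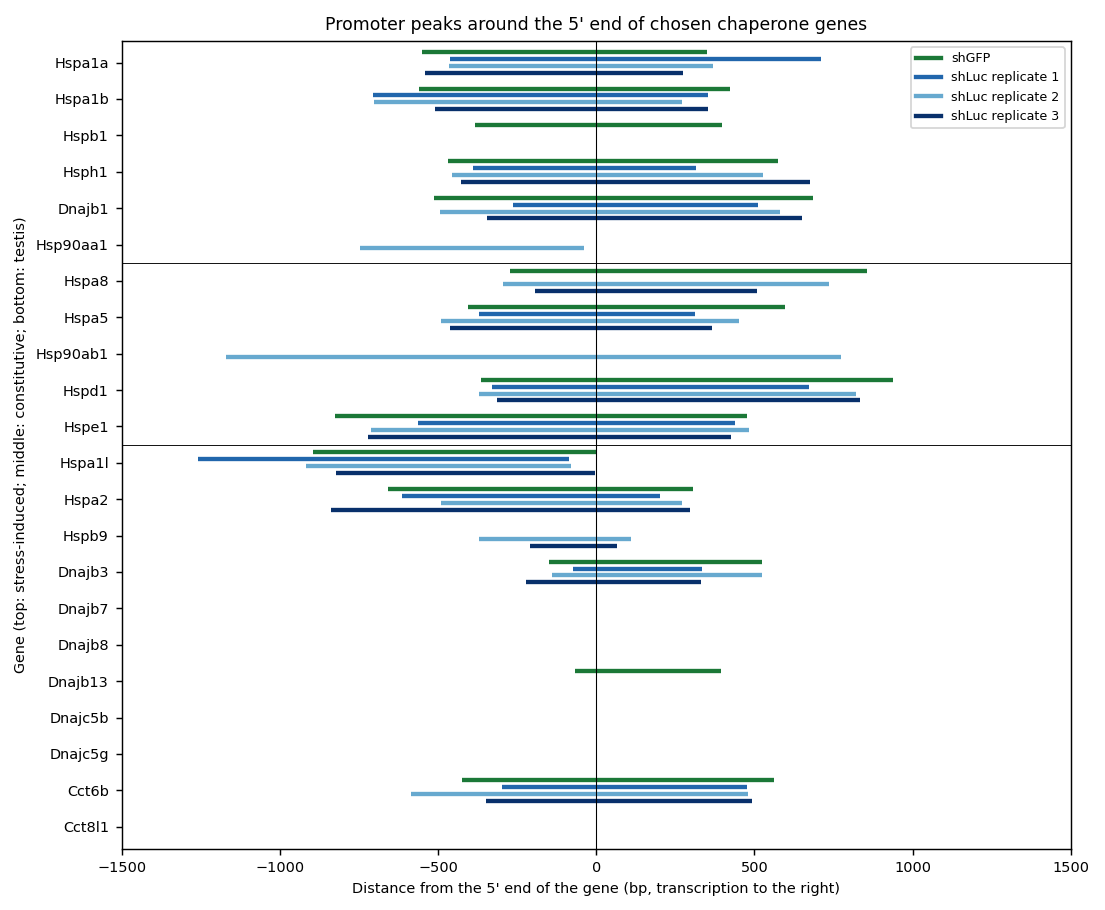
Horizontal bars are promoter peaks drawn by distance in bp from the 5' end of the gene, with transcription to the right, for the 6 stress-induced genes (top), 5 constitutive genes (middle) and 11 testis genes (bottom), coloured by library. Peaks at Hspa1a and Hspa1b cross the 5' end in all 4 libraries, those counted for Hspa1l lie upstream of its 5' end except in shGFP, where the peak reaches 4 bp past it, and 5 testis rows are empty.

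CpG content went with the presence of peaks. A promoter was called CpG-rich when, within 500 bp of the 5' end, GC content was at least 50% and CpG observed over expected at least 0.6. By this rule 53 of 82 members (64.6%) were CpG-rich, against 45.7% of all coding genes. Of the CpG-rich members 44 of 53 (83.0%) had a peak in every library, where 72% of CpG-rich coding genes did. Of the 29 CpG-poor members 11 (37.9%) did, where 20.4% of CpG-poor coding genes did. Per library, 90.6% of CpG-rich members had a peak in shGFP and 88.7, 90.6 and 86.8% in the shLuc replicates, against 91.2% and 78.3, 90.8 and 84.9% of CpG-rich coding genes. Within CpG-rich genes the shares of members and of all genes were therefore close in shGFP and shLuc replicates 2 and 3, and members were higher in replicate 1, the shortest list. The CpG-rich member without any peak was Dnajb14, with CpG observed over expected of 0.856, and its nearest peak in shGFP was 2936 bp away. CpG-poor members with a peak in every library included Hspa4l (0.384), which encodes an HSP110 protein, and Hspb6 (0.67, with GC content of 48.9%). CpG content was taken around the 5' end alone, while a peak at any start was counted. The peaks of Hspa4l began 84 to 521 bp past its 5' end, near another of its starts. At Dnajc18 and Dnajc25, also CpG-poor, the widest peaks lay at starts inside the gene. For such genes the CpG class does not describe the sequence under the peak.

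**Figure D4:**
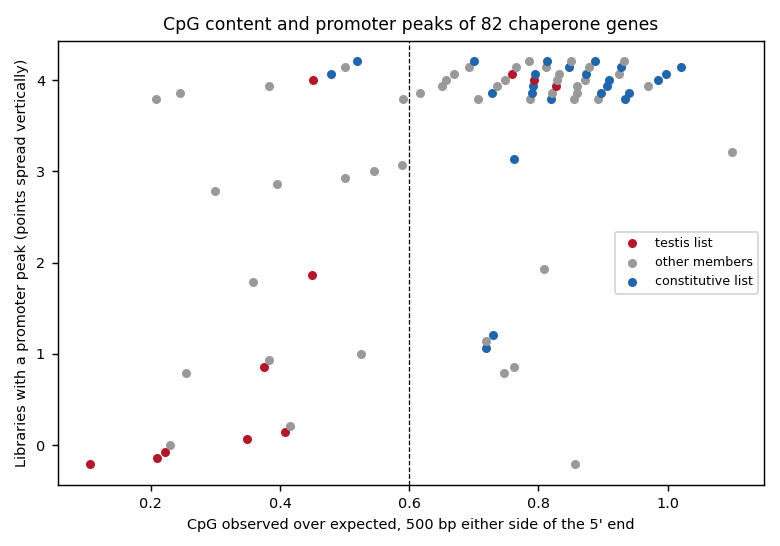
Each point is a chaperone gene, with CpG observed over expected around the 5' end on the x axis, the number of libraries with a promoter peak on the y axis (points spread vertically to separate them), and colour for the constitutive and testis lists. The dashed line marks 0.6, and 7 of the 8 genes with no peak lie to its left.

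Shared promoters were common among chaperone genes. Another coding gene started within 1 kb of 28 of 82 members (34.1%), against 14.9% of all coding genes. Of these 28, 22 (78.6%) had a peak in every library, where 70.5% of coding genes with another start so close did. Of the 54 others 33 (61.1%) did, where 39.3% of coding genes without such a neighbour did. When a peak was counted only where the member's own start was the coding start nearest to its centre, a rule chosen after the values were seen, 12 members lost a peak in at least 1 library and 6 lost all of theirs (Cct3, Hsp90b1, Hspa1l, Hspb2, Hspb6 and Hspe1). The members with a peak in every library then numbered 45 rather than 55. Where 1 peak covered both starts of a pair, which of them was open cannot be told apart from these lists. Of peaks counted for members, 78.2% in shGFP and 79.4, 78.7 and 79.7% in the shLuc replicates covered the annotated 5' end.

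Of the 4 muscle small heat shock protein genes (Hspb2, Hspb3, Hspb6 and Hspb7), 1 had a peak in every library, where 44% of all coding genes did. Hspb6, whose start lies 89 bp from that of Proser3, had 1376 bp in shGFP and 1312, 1207 and 1054 bp in shLuc. Hspb3 had a peak of 545 bp in shGFP only, and Hspb2 a peak of 290 bp in shLuc replicate 2 only. That last peak was centred 20 bp from a start of Cryab, a further small heat shock protein gene, and was the narrowest among members by mean width. Hspb7 had none.

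The median width of the widest promoter peak was 965 bp in shGFP and 754, 959.5 and 978 bp in the shLuc replicates (mean 897 ± 124, SD, n = 3), against 971 bp and 708, 936 and 900 bp for all coding genes with a peak. Within a library, the members' median thus exceeded that of all coding genes by 46, 23.5 and 78 bp in the shLuc replicates (mean 49.2 ± 27.4, SD, n = 3), and in shGFP the difference was -6 bp. The shGFP median of members was above their shLuc mean by 67.8 bp, less than the SD of that mean's replicates. Among the 55 members with a peak in every library, shLuc replicate 1 gave the narrowest peak for 38, replicate 3 for 11, and shGFP and replicate 2 for 3 each. The shGFP peak was wider than every shLuc peak at 21 of 55 (38.2%), where this held for 44.2% of coding genes with a peak in every library, and narrower than every shLuc peak at 3 of 55 (5.45%), where it held for 3.81%. By mean width the 5 widest members were Hsp90ab1 (1946 bp, 1 library), Dnajc14 (1643 bp, 3 libraries), Hspa4l (1419.5 bp), Dnajb4 (1408 bp, 3 libraries) and Cct7 (1364.5 bp). Hspa4l had peaks of 1548 bp in shGFP and 994, 1734 and 1402 bp in shLuc. Dnajc14 had 1032 bp in shGFP and 2077 and 1820 bp in shLuc replicates 2 and 3, where the peak also reached the start of Tmem198b, 101 bp away. Dnajb4, which starts 120 bp from Fubp1, had 1475 bp in shGFP and 1558 and 1190 bp in shLuc replicates 2 and 3. After Hspb2, the narrowest were Hspb9 (378 bp), Hspbap1 (410 bp), Dnajc9 (414 bp) and Dnajb13 (461 bp), all seen in 1 or 2 libraries.

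Some members had peaks with 1 hairpin only. A peak in shGFP and in no shLuc library was found at 3 members (Dnajb13, Hspb1 and Hspb3), 3.66% of members where 1.76% of all coding genes had this pattern. The reverse, a peak in some shLuc library and none in shGFP, was found at 7 (8.54%), where 4.05% of all coding genes had it. Of these, Hsp90aa1, Hsp90ab1, Hspb2 and Hspbap1 had it in replicate 2 alone, Dnajc8 and Dnajc9 in replicate 1 alone, and Hspb9 in replicates 2 and 3. No member had a peak in all 3 shLuc libraries and none in shGFP, a pattern that was rare among all coding genes as well (0.298%). A peak in every library but shLuc replicate 1 was found at 5 members (Dnajb4, Dnajc12, Dnajc14, Dnajc22 and Hspa8), 6.10% of members where 9.68% of all coding genes had this pattern. A peak was found in every library but replicate 3 at Dnaja4 and Dnajc4, 2.44% of members where 2.23% of all coding genes had this pattern. Dnajc2 had peaks in shGFP and replicate 1 (1.22% of members, 0.529% of all coding genes). Hspa12b had them in shGFP and replicate 2 (1.22% of members, 2.59% of all coding genes).

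Other genes of the chaperone pathway that the symbol rule does not take were measured alongside. Of 35 such genes, 33 (94.3%) had a promoter peak in shGFP and 28, 34 and 31 (80.0, 97.1 and 88.6%) in the shLuc replicates. All coding genes stood at 61.9% in shGFP and 48.4, 61.5 and 56.3% in shLuc. In every library 25 of the 35 (71.4%) had a peak, where 44% of all coding genes did. Hsf1, which encodes heat shock factor 1, had peaks of 1119 bp in shGFP and 760, 1143 and 937 bp in shLuc. Stip1 (HOP), which links HSP70 to HSP90, had 1215 bp in shGFP and 1197, 1348 and 1227 bp in shLuc. Tcp1, the remaining subunit of the CCT ring, had 1165 bp in shGFP and 1115, 994 and 1229 bp in shLuc. All 35 had a peak in at least 1 library, and Serpinh1 (261 bp) and Cryab (290 bp) had theirs in shLuc replicate 2 alone. Of 15 annotated pseudogenes with matching symbols, 0 had a promoter peak in any library, and the share over all pseudogenes was not measured.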

How the data were processed

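The data were 4 ATAC-seq peak lists deposited by the authors, 1 per library and not pooled, with 3 columns (chromosome, start and end in bp) and no height, score or p-value. According to the study's methods and the submitters' processing notes, bowtie2 placed reads on mm10 at their best alignment, equally good positions were resolved at random, and concordant pairs were used. MACS2 is named in the notes, and its version, its threshold and any shift of reads for the transposase are not given in the sources used here. Deeper libraries usually give more peaks, and depth is unknown from the lists.

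Coordinates are GRCm38 (mm10), counted from 1, and 0 peaks ended past a chromosome end. Starts came from GENCODE mouse release 21. Analysis used Python 3.11.15, numpy 2.4.6, scipy 1.17.1, pandas 2.3.3, numba 0.67.0 (word counts), biopython 1.88 (alignment) and matplotlib 3.10.9. A promoter peak had any base within 1 kb of any transcript start, and its width was that of the widest such peak. Values are given per library, with mean and SD over shLuc. Functions were tested on simulated data. The members and lists were chosen with earlier results of these data known. Values per library are named for the members of the fixed lists, the 5 widest and 5 narrowest, those with a peak in 1 library and those seen with 1 hairpin only. The alternatives were windows of 500 bp and 5 kb, coding transcripts only, the gene's 5' end only, peak centres, lists of equal length or cut to their widest 50%, no cofactor genes, and each shLuc library left out.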

Additional observations from a re-analysis of the deposited data

How the results depend on the processing

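Windows of 500 bp or 5 kb, other choices of start, peak centres and dropping the cofactor genes left the results within the spread between replicates (shGFP shares within their Wilson interval) and counts within 1.5 times their value, except that with 5 kb the members without any peak numbered 5 rather than 8. Over the settings other than leaving out a library, 87 values stayed within those limits and 9 did not. With the widest 50% of each list, the shLuc mean share of members was 63.0%, and 16 members had no peak. In that setting 37 members had a peak in every library rather than 55, a fall within the limit of 1.5 times. With lists of equal length, the share of members was 68.3% in the shLuc mean and 69.5% in shGFP. There 44 members had a peak in every library and 13 had none. With peaks counted only for the nearest coding start (chosen after seeing the data), the shLuc mean share was 65.4%, its excess over all coding genes 15.4 points, and 14 members had no peak. These settings remove peaks by construction. No direction reversed.

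Leaving out 1 shLuc library at a time gave shLuc mean shares of 73.8 to 78.7%, an excess over all coding genes of 19.8 to 23.1 points, 55 to 60 members with a peak in every remaining library, 8 to 12 with none, median widths of 857 to 969 bp and 21 to 22 constitutive genes in every remaining library. The testis genes with any peak stayed at 6 (lowest and highest). Hspa1a or Hspa1b had a peak in 3 of the 3 remaining libraries each time, which follows from their peaks in every library. Counts of genes with a peak in every remaining library, or in none, can only stay or rise when a library is left out. Without replicate 2, Hsp90aa1, Hsp90ab1, Hspb2 and Hspbap1 joined the members with no peak. No paired analysis was possible because shGFP has 1 library and shares a single replicate number with shLuc. With no depth or score per peak, a missing peak cannot be told apart from too few reads or from a peak left out of the lists used here, which bears on the HSP90 genes and the 8 members without a peak.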
